A study of Mus musculus with 18 samples.

Results

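The genes described here make up the NRF2 and antioxidant defence system of mouse cells, 41 genes chosen by gene name among the 30452 in the deposited table. They are the transcription factor NRF2 (Nfe2l2) and its inhibitor Keap1, the enzymes that make and recycle glutathione, the thioredoxin system, the suppliers of NADPH, the peroxiredoxins, glutathione peroxidases, superoxide dismutases and catalase, glutathione transferases with 1 exporter, and the ferritin subunits. A gene was tested when its level reached 1 FPKM (a fragment count scaled to transcript length and library size) in at least 3 libraries. That left 11936 genes in all and 40 of the 41 members. The exception was Slc7a11.

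RNA came from MC3T3-E1, an established line of mouse pre-osteoblasts, cultured for 5 days on membrane discs of 15 mm seeded with 20000 cells per well. The 3 membranes were PLLA (poly-L-lactic acid, a biodegradable polyester), PLLA carrying zinc oxide (PLLA/ZnO), and PLLA/ZnO combined with collagen (PLLA/ZnO@Col). On each membrane cells either received no ultrasound (-US) or were exposed to it for 10 min per day (+US), so the 18 libraries form 6 groups of 3. No amount of zinc oxide and no ultrasound setting other than the daily time is used here. All 6 groups were grown on a membrane, so each comparison is between membranes or ultrasound states and none is with plain plastic. The series set out to ask whether piezoelectric fibre films of this kind favour bone repair. The labels do not state that the 3 libraries of a group came from separate cultures, so each p-value measures the spread between these libraries, which may be technical.

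Under resting conditions Keap1 holds NRF2 for degradation. Oxidants and electrophiles modify Keap1, NRF2 then accumulates, and with a small Maf protein it binds the antioxidant response element in front of genes for detoxifying enzymes, glutathione synthesis and NADPH supply. Peroxiredoxins and glutathione peroxidases reduce peroxides with electrons drawn from NADPH through thioredoxin and glutathione, superoxide dismutases turn superoxide into hydrogen peroxide, and ferritin stores iron that would otherwise feed radical chemistry. In osteoblasts these systems buffer the peroxide that accompanies respiration and matrix production.

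Matches to the core of the element NRF2 binds can be read in the RefSeq promoter windows (build GRCm38.p6) of several members. A window covers 250 bases before and 50 after a transcription start, and 34 of the 41 members had at least 1. The core antioxidant response element, TGACNNNGC searched on both strands, was found in the windows of 10 of these 34 members (29.4%), against 16.8% of 8540 tested genes with a window and 14.0% of all 27025 genes with one. The AP-1 motif TGACTCA, which overlaps the core where TGACTCA is followed by GC, was present in 4 of the 34 members (11.8%) against 4.38% of the tested genes. A match is a run of letters and not a measured binding site. The 10 members were Nfe2l2, Srxn1, Gclm, Prdx1, Pgd, Mgst1, Me1, Txnrd1, Sod1 and G6pdx, and in Prdx1 and Me1 the core also holds the AP-1 motif. Of the 10 matches, 7 lie before the RefSeq start. The 4 of these that also lie outside the gene's deposited span are printed to show what a match looks like. They are written 5′ to 3′ on the gene's strand with the 9-base core, or its reverse complement, in capitals. They are at chr2:75704880-75704913 (minus strand), chr3:122245408-122245446, chr4:116685451-116685489 and chr16:90220691-90220729 (all plus strand).
Nfe2l2: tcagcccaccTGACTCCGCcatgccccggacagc
Gclm: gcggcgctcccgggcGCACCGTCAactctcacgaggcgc
Prdx1: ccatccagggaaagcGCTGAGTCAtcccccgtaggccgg
Sod1: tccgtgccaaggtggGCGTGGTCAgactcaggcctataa
Read on the strand of the motif, the core is TGACTCCGC in Nfe2l2, TGACGGTGC in Gclm, TGACTCAGC in Prdx1 and TGACCACGC in Sod1. The core in Prdx1 is the 1 of the 4 that contains TGACTCA.

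Several libraries stood apart from the others before any group was compared. In 7 libraries the reads of Y-linked genes were between 1.09% and 30.5% of the highest library, against 53.1% to 100% in the other 11, and their mitochondrial reads made up 1.57% to 2.27% of counts against 2.31% to 4.54%. They were every library of PLLA/ZnO@Col +US, replicates 1 and 3 of PLLA/ZnO@Col -US, and replicate 3 in each of PLLA +US and PLLA/ZnO +US. In 3 of the 7, the collagen libraries -US 1, -US 3 and +US 1, the surface marker Thy1 was at 0.0709 to 0.128 FPKM, against 2.55 to 5.79 FPKM in the other 15. PLLA +US replicate 3 also held kidney tubule transcripts. A further split ran through the macrophage markers: 6 libraries (replicate 3 of PLLA +US, PLLA/ZnO -US and PLLA/ZnO +US, and on collagen replicate 2 without and replicates 2 and 3 with ultrasound) had Itgam at 0 to 0.0109 FPKM and Csf1r at 0.0530 to 0.225, against 0.974 to 1.64 and 1.06 to 1.68 FPKM in the other 12. The 6, called low in macrophage markers below, were set apart by Itgam under 0.1 FPKM. The 8 listed macrophage markers summed to 17.9 to 25.1 FPKM in these 6 and to 38.4 to 50.4 FPKM in the 12. Cd68 and Lyz2 were also lower in the 6, without overlap. Cd14 overlapped, at 9.87 to 15.9 FPKM in the 6 and 11.9 to 17.2 FPKM in the 12. Adgre1 and Ptprc were under 0.1 FPKM in all 18 and C1qa was at 0 in 17. Of the 6, 4 are also low in Y-linked reads. The levels in the 6 and the 12 overlapped for all 40 members, but the share of all genes that overlapped was not computed. Nor was it for the splits by Thy1 and by Y-linked reads, so separations of single members by these splits, given below, have no such share beside them. The part of either set in the results was not tested beyond leaving its libraries out. Of the osteoblast markers, Col1a1 and Spp1 were abundant in the libraries, whereas Ibsp, Alpl and Sp7 were at or near 0. Counts per library were 48307580 to 78039543, so counting error was small for all but the lowest members.

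No member passed the test in any comparison. By edgeR's quasi-likelihood test with Benjamini-Hochberg adjustment at 0.05, 0 of 11936 genes and 0 of 40 members were called (percent called 0) in each of the 10 contrasts and in the test of any difference between the 6 groups. At an unadjusted p under 0.05 the members numbered 4 of 40 (10.0%) in the test of any difference, against 1285 of all genes (10.8%). DESeq2 called 506 genes (4.24%) in that test, with Gpx8 the only member among them (adjusted p = 0.0257). The levels are therefore given as descriptions with their spread, and higher or lower refers to the measured values and not to a passed test unless a call is given. In bulk RNA, fewer cells of a type and less RNA per cell cannot be told apart.

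The members spanned about 3 orders of magnitude in FPKM, a scale on which genes can be compared because it is set per length. Of the 40, 7 had a median over the 18 libraries of at least 100 FPKM, 29 lay between 10 and 100, and 4 below 10. The ferritin subunits led with medians of 1462 FPKM for Fth1 and 1226 FPKM for Ftl1, followed by Txn1 at 195 FPKM, Gstp1 at 162, Gpx1 at 159, Gpx4 at 116 and Prdx1 at 113. Gclm at 8.24 FPKM, Mgst1 at 6.29, Gss at 5.17 and Gpx3 at 1.58 had the lowest medians. Highest and lowest library differed by less than 2-fold for 19 members, by 2- to 4-fold for 19, and by more for 2, Gpx3 and Sod3. The map of all 40 members by library shows the pattern as columns more than as groups.

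**Figure D1:**
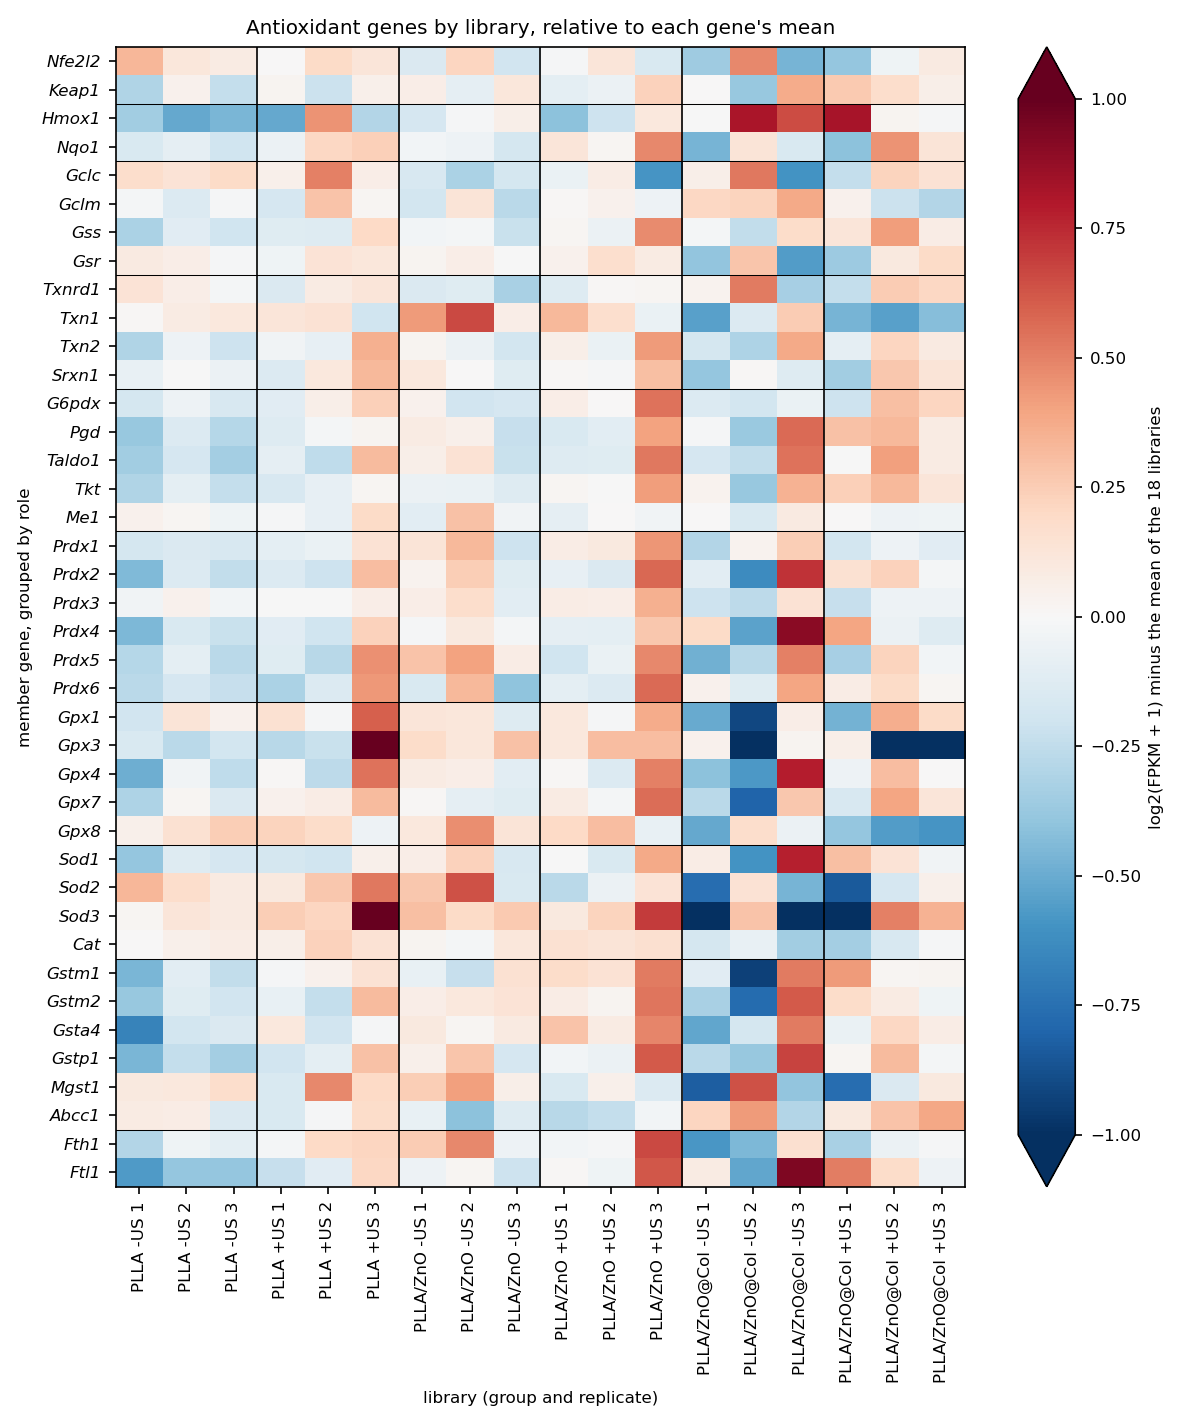
Each row is a member gene, ordered by role, and each column a library, with vertical lines between groups. Colour gives log2(FPKM + 1) minus that gene's mean over the 18 libraries. PLLA/ZnO@Col -US replicate 3 and PLLA/ZnO +US replicate 3 show the most red cells (13 and 12 members more than 0.5 above their mean), and PLLA/ZnO@Col -US replicate 2 the most blue (10 members more than 0.5 below). Of all tested genes, 12% and 4.19% were that far above in the former libraries and 8.58% that far below in the last.

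The regulators showed no shift by group. Nfe2l2, which encodes NRF2 (chromosome 2, 75675513 to 75704641, minus strand), lay at 88.8, 76.3 and 74.7 FPKM on PLLA without ultrasound and at 70.5, 80.3 and 76.8 with it. On PLLA/ZnO its FPKM values were 63.7, 82.1 and 61.6 without and 69.8, 76.9 and 63.2 with ultrasound, and on PLLA/ZnO@Col 54.7, 98.6 and 50.7 and 53.5, 68.4 and 74.9. The groups overlapped on each membrane, and both the highest and the lowest Nfe2l2 value came from PLLA/ZnO@Col -US. The 3 libraries with little Thy1 held the 3 lowest values, 50.7 to 54.7 FPKM against 61.6 to 98.6 FPKM in the other 15. Keap1, the adaptor that targets NRF2 for degradation, was at 11.1, 14.3 and 11.6 FPKM on PLLA -US and 14.1, 11.8 and 14.4 on PLLA +US. On PLLA/ZnO it was at 14.5, 12.98 and 15.1 FPKM without and 12.9, 13.3 and 16.4 with ultrasound, and on PLLA/ZnO@Col at 13.9, 10.4 and 18.2 and 16.8, 15.8 and 14.4. Its groups also overlapped, and its log2 fold changes in the 7 pairwise comparisons ran from -0.00 to 0.22.

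Of Hmox1 and Nqo1, classic NRF2 targets, Hmox1 reached its highest levels on collagen and Nqo1 was above its controls with ultrasound on PLLA and on PLLA/ZnO. Hmox1, which opens the haem ring (chromosome 8, 75093621 to 75100589), was at 54.4, 48.7 and 50.5 FPKM on PLLA -US and at 48.7, 95.5 and 56.7 on PLLA +US. Its values on PLLA/ZnO were 62.1, 69.02 and 72.7 FPKM without and 52.04, 60.1 and 74.9 with ultrasound. On PLLA/ZnO@Col they were 69.6, 123 and 109.9 FPKM without and 124, 71.2 and 68.96 with it. The 3 values above 100 FPKM came from PLLA/ZnO@Col, in both ultrasound states, and PLLA/ZnO -US lay above PLLA -US with no overlap (67.9 ± 5.41 against 51.2 ± 2.94 FPKM, mean ± SD, n = 3). Collagen without ultrasound gave Hmox1 a log2 fold change of 0.59 (SE 0.28), with an adjusted p of 0.383 by edgeR. Nqo1, the quinone reductase often read as the marker of NRF2 activity (chromosome 8, 107388225 to 107403206, minus strand), was at 61.1, 63.8 and 58.9 FPKM on PLLA -US and 65.05, 78.5 and 80.5 on PLLA +US. On PLLA/ZnO it was at 66.8, 65.6 and 60.1 FPKM without and 73.9, 68.97 and 95.3 with ultrasound, again without overlap. Libraries from the collagen membrane were at 48.9, 74.2 and 61.1 FPKM without and 50.9, 92.8 and 74.4 with ultrasound, and there the groups overlapped. Nqo1 was thus above all its controls in 3 of 3 treated libraries on PLLA and in 3 of 3 on PLLA/ZnO. So were 4.99% of all genes on PLLA and 6.82% on PLLA/ZnO. Its 3 highest values, 80.5 to 95.3 FPKM, came from +US libraries with few Y-linked reads. With all libraries the log2 fold changes were 0.25 (SE 0.18) on PLLA, 0.31 (SE 0.18) on PLLA/ZnO and 0.27 (SE 0.11) averaged over the membranes. The average had an unadjusted p of 0.0231 and an adjusted p of 0.363 by edgeR. Without PLLA/ZnO +US replicate 3 the log2 fold change on PLLA/ZnO was 0.16.

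Glutathione synthesis and recycling held Gclm, the member with the smallest unadjusted p for ultrasound on the collagen membrane. This modifier subunit of the ligase that sets the rate of glutathione synthesis (chromosome 3, 122245557 to 122270732) was at 9.67, 9.79 and 11.03 FPKM on PLLA/ZnO@Col -US and at 8.51, 6.96 and 6.55 on PLLA/ZnO@Col +US. All 3 untreated collagen libraries lay above all 3 treated ones, and also above all 3 PLLA/ZnO -US libraries at 7.14, 9.10 and 6.67 FPKM. PLLA/ZnO +US was at 8.30, 8.52 and 7.90 FPKM, PLLA -US at 8.09, 7.41 and 8.17 and PLLA +US at 7.23, 10.3 and 8.38. The log2 fold change of Gclm was -0.47 (SE 0.16) for ultrasound on collagen and 0.45 (SE 0.16) for collagen without ultrasound, 2 contrasts that share PLLA/ZnO@Col -US. Their unadjusted p were 0.00967 and 0.0121, and their adjusted p 0.525 and 0.240 by edgeR. The ultrasound response of Gclm differed between PLLA/ZnO@Col and PLLA/ZnO by -0.58 (SE 0.22), with an adjusted p of 0.999.

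Gclc, the catalytic subunit of the same ligase, did not share this pattern of levels. It lay at 17.99, 17.5 and 18.2 FPKM on PLLA -US, 16.4, 22.9 and 16.7 on PLLA +US, 14.1, 12.5 and 13.9 on PLLA/ZnO -US and 15.05, 16.8 and 10.2 on PLLA/ZnO +US. The collagen libraries were at 16.5, 23.2 and 10.1 FPKM without and 13.3, 18.6 and 17.6 with ultrasound, so the highest and the lowest of all 18 values both fell in PLLA/ZnO@Col -US. PLLA/ZnO -US was below PLLA -US with no overlap, at 13.5 ± 0.862 against 17.9 ± 0.348 FPKM (mean ± SD, n = 3). Gss, glutathione synthetase, was at 4.05, 4.79 and 4.45 FPKM on PLLA -US and 4.76, 4.73 and 6.21 on PLLA +US, at 5.15, 5.18 and 4.36 on PLLA/ZnO -US and 5.35, 5.04 and 7.71 on PLLA/ZnO +US, and at 5.20, 4.30 and 6.13 and 5.83, 7.38 and 5.59 on the collagen membrane. Its 2 highest values belonged to PLLA/ZnO@Col +US replicate 2 and PLLA/ZnO +US replicate 3, and its log2 fold change for ultrasound averaged over membranes was 0.25 (SE 0.10; unadjusted p 0.0258, adjusted p 0.363 by edgeR). Gsr, glutathione reductase, ranged from 15.2 to 28.0 FPKM and was at 15.2 to 17.6 FPKM in the 3 libraries with little Thy1, below all of the other 15 at 22.2 to 28.0 FPKM. Slc7a11, the cystine transporter that feeds the pathway, was low, at 95 to 1071 counts per library. In FPKM it was at 0.747, 0.318 and 0.362 FPKM on PLLA -US, 0.319, 0.459 and 0.194 on PLLA +US, 0.398, 0.403 and 0.307 on PLLA/ZnO -US, 0.263, 0.375 and 0.118 on PLLA/ZnO +US, 0.573, 1.19 and 0.575 on PLLA/ZnO@Col -US and 0.508, 0.206 and 0.195 on PLLA/ZnO@Col +US. Only PLLA/ZnO@Col -US replicate 2 reached 1 FPKM, so Slc7a11 was not tested.

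In the thioredoxin system Txn1 had its lowest group mean, 133 FPKM, on PLLA/ZnO@Col +US. Txn1, the cytosolic thioredoxin (chromosome 4, 57943373 to 57956411, minus strand), was at 187, 197 and 200.005 FPKM on PLLA -US and 202, 206 and 161 on PLLA +US. On PLLA/ZnO it was at 250.003, 294 and 194 FPKM without and 233, 208 and 177 with ultrasound. The collagen groups were at 127, 169 and 222 FPKM without and 134, 127 and 138 with ultrasound. All 3 PLLA/ZnO@Col +US libraries were below all 3 PLLA/ZnO +US libraries. Without ultrasound the collagen and PLLA/ZnO groups overlapped, as PLLA/ZnO@Col -US replicate 3 was at 222 FPKM. The 3 PLLA/ZnO@Col +US libraries are all among the 7 with few Y-linked reads, and the part of that set in Txn1 was not tested. Over the series the 7 were at 127 to 222 FPKM and the other 11 at 169 to 294 FPKM. The log2 fold change of Txn1 for collagen was -0.60 (SE 0.20) with ultrasound and -0.48 (SE 0.19) without it, with adjusted p of 0.415 and 0.305 by edgeR.

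Txnrd1, the reductase that recharges thioredoxin, was at 47.6, 45.3 and 42.7 FPKM on PLLA -US and 39.01, 45.9 and 47.2 on PLLA +US. Its FPKM values were 39.01, 39.7 and 34.3 on PLLA/ZnO -US and 39.6, 43.7 and 43.8 on PLLA/ZnO +US, and 44.3, 62.4 and 34.2 and 36.5, 51.8 and 50.05 on PLLA/ZnO@Col without and with ultrasound. PLLA/ZnO -US lay below PLLA -US with no overlap, as for Gclc. Srxn1, sulfiredoxin, which repairs over-oxidised peroxiredoxins, was at 47.9, 50.4 and 48.5 FPKM on PLLA -US, 45.9, 54.4 and 63.4 on PLLA +US, 54.5, 50.5 and 46.4 on PLLA/ZnO -US and 50.8, 50.1 and 62.6 on PLLA/ZnO +US. With collagen the values were 38.3, 51.02 and 46.1 FPKM without and 39.4, 61.2 and 55.4 with ultrasound, and its groups overlapped in each of the 7 pairwise comparisons. Txn2, the mitochondrial thioredoxin, was at 17.6, 21.1 and 18.9 FPKM on PLLA -US and 21.4, 20.7 and 28.4 on PLLA +US, at 22.4, 20.97 and 19.2 and 22.9, 20.96 and 29.9 on PLLA/ZnO and at 19.3, 17.5 and 28.9 and 20.5, 25.7 and 23.4 on PLLA/ZnO@Col. Its 3 highest values were those of PLLA/ZnO +US replicate 3, PLLA/ZnO@Col -US replicate 3 and PLLA +US replicate 3. On PLLA its log2 fold change for ultrasound was 0.25 (SE 0.18), and 0.14 without PLLA +US replicate 3.

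Among the NADPH suppliers, G6pdx had the smallest unadjusted p for ultrasound of all members when the membranes were averaged. G6pdx, the entry enzyme of the pentose phosphate pathway (chromosome X, 74409483 to 74429194, minus strand), was at 64.1, 69.8 and 64.7 FPKM on PLLA -US and 66.8, 75.5 and 85.6 on PLLA +US. On PLLA/ZnO it was at 74.7, 63.5 and 64.3 FPKM without and 75.98, 72.5 and 106 with ultrasound, and on PLLA/ZnO@Col at 65.7, 63.7 and 69.2 and 62.7, 89.5 and 84.1. The 4 highest values, 84.1 to 106 FPKM, all came from +US libraries, and all 4 are among the 7 libraries with few Y-linked reads. G6pdx had a log2 fold change of 0.25 (SE 0.09) for the average (unadjusted p 0.0132, adjusted p 0.363 by edgeR) and 0.33 (SE 0.15) on PLLA/ZnO, where it was 0.13 with the 7 libraries left out. Tkt, transketolase, was at 36.9, 36.2 and 48.8 FPKM on PLLA/ZnO +US and 32.3, 34.3 and 36.9 on PLLA +US, against 34.9, 34.6 and 33.1 and 29.2, 33.9 and 30.6 without ultrasound. Libraries from the collagen membrane were at 37.2, 27.7 and 46.6 FPKM without and 42.97, 45.9 and 39.7 with ultrasound. Tkt was at 36.89 to 48.8 FPKM in the 7 libraries with few Y-linked reads and at 27.7 to 36.87 FPKM in the other 11, so the sets touched but did not overlap. Pgd, the next enzyme of the pathway, ranged from 24.9 to 48.9 FPKM, Taldo1, transaldolase, from 37.3 to 70.0 FPKM, and Me1, malic enzyme, from 42.1 to 57.7 FPKM. Me1 was the steadiest of these, with group means between 45.6 and 49.03 FPKM.

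All 6 peroxiredoxins, which reduce peroxides through a reactive cysteine, had positive log2 fold changes for PLLA/ZnO over PLLA, without ultrasound (0.07 to 0.50) and with it (0.10 to 0.27), and 0 of 6 was called. Prdx1, the main cytosolic form (chromosome 4, 116685544 to 116700822), was at 105, 107 and 106 FPKM on PLLA -US and 129.6, 148 and 102 on PLLA/ZnO -US. With ultrasound it was at 110.1, 113 and 131 FPKM on PLLA and 124, 127 and 161 on PLLA/ZnO, and on PLLA/ZnO@Col at 96.3, 121 and 140.3 without and 104, 114 and 109 with ultrasound. Prdx1 overlapped between PLLA and PLLA/ZnO in both ultrasound states, through PLLA/ZnO -US replicate 3 at 102 FPKM and PLLA +US replicate 3 at 131 FPKM. Prdx5, the form shared by mitochondria and peroxisomes, was at 49.6, 56.6 and 50.1 FPKM on PLLA -US and 74.4, 80.8 and 64.01 on PLLA/ZnO -US, with no overlap. Its FPKM was 55.8, 50.1 and 83.8 on PLLA +US, 52.9, 57.97 and 85.2 on PLLA/ZnO +US, 43.4, 50.1 and 86.4 on PLLA/ZnO@Col -US and 48.2, 71.02 and 59.5 on PLLA/ZnO@Col +US. The log2 fold change of Prdx5 for zinc oxide without ultrasound was 0.50 (SE 0.24), with an unadjusted p of 0.0592 and an adjusted p of 1 by edgeR. The lowest of its 3 PLLA/ZnO -US values came from replicate 3, which is low in macrophage markers, and without all 6 such libraries the log2 fold change was 0.56. The remaining forms varied by library: Prdx2 ranged from 41.0 to 106 FPKM, Prdx3 of mitochondria from 48.6 to 75.0, Prdx4 of the endoplasmic reticulum from 25.0 to 69.5, and Prdx6 from 22.0 to 44.1 FPKM.

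Gpx3, the secreted plasma glutathione peroxidase made mainly in kidney tubules (chromosome 11, 54902453 to 54910377), was high in 1 library only. It was at 1.26, 1.09 and 1.21 FPKM on PLLA -US and at 1.07, 1.15 and 23.2 on PLLA +US. On PLLA/ZnO it was at 1.86, 1.73 and 2.08 FPKM without and 1.70, 2.11 and 2.11 with ultrasound, and on PLLA/ZnO@Col at 1.59, 0.0616 and 1.57 and 1.62, 0.110 and 0.107. The value of 23.2 FPKM is that of PLLA +US replicate 3, and the other 17 libraries lay between 0.0616 and 2.11 FPKM. In that library the 12 kidney tubule markers summed to 76.8 FPKM, against at most 0.165 FPKM in any other. All 12 were detected there, Aqp2 lowest at 0.18 FPKM, and Kap, a proximal tubule marker, was at 62.4 FPKM there and at 0 in the other 17. Its red cell markers also summed to 20.4 FPKM against at most 0.387 FPKM elsewhere, and its liver markers to 3.45 FPKM against at most 0.646, with albumin at 0. With that library set aside, Gpx3 on PLLA +US was 1.11 ± 0.0573 FPKM (SD, n = 2), and the PLLA libraries with and without ultrasound overlapped. The log2 fold change for ultrasound on PLLA was 2.72 (SE 1.20) with all libraries and -0.082 without that library, and for zinc oxide with ultrasound it was -1.98 (SE 1.16) and 0.83. The part of the other tissue transcripts in the levels of other members of that library was not tested.

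**Figure D2:**
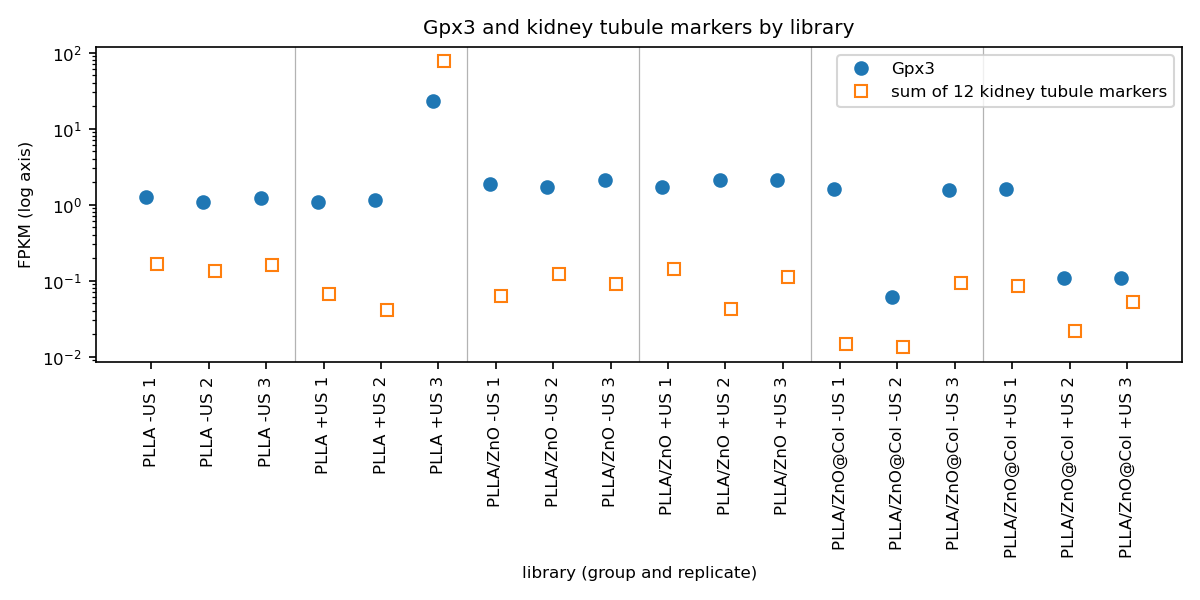
Points give Gpx3 (filled circles) and the summed level of 12 kidney tubule markers (open squares) in each library, in FPKM on a log axis. PLLA +US replicate 3 stands apart in both, at 23.2 and 76.8 FPKM, and 3 PLLA/ZnO@Col libraries have Gpx3 near 0.1 FPKM.

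Without that library Gpx3 was higher on PLLA/ZnO than on PLLA and split within the collagen groups. The 6 PLLA/ZnO libraries were at 1.70 to 2.11 FPKM, above the 5 remaining PLLA libraries at 1.07 to 1.26 FPKM. In the collagen groups, replicates 2 and 3 with ultrasound and replicate 2 without it were at 0.0616 to 0.110 FPKM, while the 3 libraries with little Thy1 were at 1.57 to 1.62 FPKM. Some macrophage markers split the collagen libraries in the same way. Itgam was at 0 in the 3 libraries with low Gpx3 and at 1.504 to 1.64 FPKM in the other 3. Csf1r was at 0.0530 to 0.105 against 1.37 to 1.68 FPKM, and Cd68, Lyz2 and Ptprc were lower there too, without overlap. Cd14 overlapped (11.4 to 14.8 against 11.9 to 17.2 FPKM), as did Adgre1, and C1qa was at 0 in both sets. Off the collagen membrane it was otherwise, as the PLLA/ZnO libraries low in Itgam and Csf1r held Gpx3 at 2.08 and 2.11 FPKM. Gpx3 counts in the 3 low libraries were 8, 15 and 12.

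Gpx8, a peroxidase of the endoplasmic reticulum (chromosome 13, 113042753 to 113046410, minus strand), had the smallest p of all members. It was at 43.5, 46.6 and 49.7 FPKM on PLLA -US and 49.1, 47.6 and 40.4 on PLLA +US, and at 45.03, 58.3 and 46.01 on PLLA/ZnO -US and 48.2, 52.04 and 39.8 on PLLA/ZnO +US. The collagen groups were at 29.02, 47.3 and 40.3 FPKM without and 31.7, 28.1 and 27.5 with ultrasound. The 3 PLLA/ZnO@Col +US libraries were below all 3 PLLA/ZnO +US libraries, with a log2 fold change of -0.65 (SE 0.17), an unadjusted p of 0.00186 and an adjusted p of 0.403 by edgeR. The adjusted p for this contrast ranged from 0.0586 to 0.9998 over the other settings. Gpx8 was at 27.5 to 40.4 FPKM in the 7 libraries with few Y-linked reads and at 43.5 to 58.3 FPKM in the other 11, with no overlap. All 3 PLLA/ZnO@Col +US libraries belong to the 7, so for Gpx8 the collagen group with ultrasound and this set of libraries cannot be told apart. In the groups that hold both kinds, the libraries with few Y-linked reads had the lower Gpx8 level (40.4 against 47.6 and 49.1 FPKM on PLLA +US, 39.8 against 48.2 and 52.0 FPKM on PLLA/ZnO +US, and 29.0 and 40.3 against 47.3 FPKM on PLLA/ZnO@Col -US).

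Gpx1, the abundant cytosolic peroxidase, was at 131, 164 and 154 FPKM on PLLA -US, 166, 148 and 227 on PLLA +US, 163, 162 and 137 on PLLA/ZnO -US and 161, 149 and 194 on PLLA/ZnO +US. With collagen the values were 106, 79.1 and 157 FPKM without and 108, 193 and 171 with ultrasound. Its log2 fold change for ultrasound on collagen was 0.46 (SE 0.24; adjusted p 0.525 by edgeR), and 1.25 (adjusted p 0.0472, with 0.93% of all genes called) without the 3 libraries with little Thy1, which leaves PLLA/ZnO@Col -US with 1 library. Without the 6 libraries low in macrophage markers it was -0.29 (adjusted p 0.988). Gpx4, which reduces lipid peroxides in membranes, was at 83.5, 115 and 98.5 FPKM on PLLA -US, 119, 98.004 and 171 on PLLA +US, 124, 123 and 109 on PLLA/ZnO -US and 119, 107 and 167 on PLLA/ZnO +US. Its values on PLLA/ZnO@Col were 88.1, 78.5 and 203 FPKM without and 114, 146 and 118 with ultrasound, and PLLA/ZnO@Col -US alone spanned the whole range of the series. The Gpx4 pseudogene Gpx4-ps2 was listed at 32.0 to 73.0 FPKM, a median of 42.4% of Gpx4, so how reads were split between the copies makes the level of Gpx4 uncertain. Gpx7, of the endoplasmic reticulum, ranged from 14.3 to 38.1 FPKM.

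Among the superoxide dismutases, the lowest levels of Sod2 and Sod3 came from the same 3 libraries. Sod3, the extracellular form (chromosome 5, 52363791 to 52371418), was at 15.1, 16.2 and 15.8 FPKM on PLLA -US and 17.8, 17.4 and 30.6 on PLLA +US, and at 18.5, 17.1 and 17.98 and 15.96, 17.4 and 24.7 on PLLA/ZnO. Libraries from the collagen membrane were at 3.74, 18.3 and 5.01 FPKM without and 4.81, 21.4 and 19.1 with ultrasound. Every library with little Thy1 was at 3.74 to 5.01 FPKM and the other 15 at 15.1 to 30.6 FPKM, and this split ran through both collagen groups. How many of all genes separate these libraries from the rest in the same way was not computed. Sod2, the mitochondrial form (chromosome 17, 13006846 to 13037398), was at 13.8, 12.3 and 11.6 FPKM on PLLA -US, 11.6, 13.2 and 16.01 on PLLA +US, 13.2, 17.4 and 9.58 on PLLA/ZnO -US and 8.75, 10.3 and 11.9 on PLLA/ZnO +US. The collagen groups were at 5.96, 11.996 and 7.55 FPKM without and 5.58, 9.47 and 11.2 with ultrasound, and again the lowest 3 values, 5.58 to 7.55 FPKM, were those of the libraries with little Thy1. For collagen without ultrasound Sod2 had a log2 fold change of -0.63 (SE 0.27; adjusted p 0.325 by edgeR). That value was -0.92 (adjusted p 0.0498) without PLLA/ZnO@Col -US replicate 2, a fit that also called Sod3 at -1.96 (adjusted p 0.0197) with 8.70% of all genes called and that leaves only libraries with little Thy1 in the group. It was -0.18 (adjusted p 0.758) without the 3 libraries with little Thy1.

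Sod1, the cytosolic copper-zinc dismutase, was at 24.8, 29.95 and 29.2 FPKM on PLLA -US, 28.98, 28.4 and 34.1 on PLLA +US, 34.5, 38.8 and 29.3 on PLLA/ZnO -US and 32.7, 29.4 and 43.1 on PLLA/ZnO +US. Its values on PLLA/ZnO@Col were 34.5, 21.3 and 56.98 FPKM without and 40.7, 36.2 and 31.97 with ultrasound. The highest and lowest of the series were both PLLA/ZnO@Col -US libraries. Catalase, Cat, the peroxisomal enzyme that splits hydrogen peroxide, was at 26.9, 27.9 and 28.3 FPKM on PLLA -US, 28.002, 31.7 and 29.8 on PLLA +US, 27.4, 26.5 and 29.1 on PLLA/ZnO -US and 30.01, 29.4 and 30.1 on PLLA/ZnO +US. With collagen the values were 23.6, 25.5 and 20.9 FPKM without and 21.04, 23.9 and 26.7 with ultrasound. Both collagen groups lay below the PLLA/ZnO group of the same ultrasound state with no overlap, with log2 fold changes of -0.21 (SE 0.11) without and -0.29 (SE 0.11) with ultrasound (adjusted p 0.468 and 0.457 by edgeR). On PLLA/ZnO, ultrasound libraries were above the controls with no overlap, 29.9 ± 0.356 against 27.7 ± 1.35 FPKM (mean ± SD, n = 3).

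**Figure D3:**
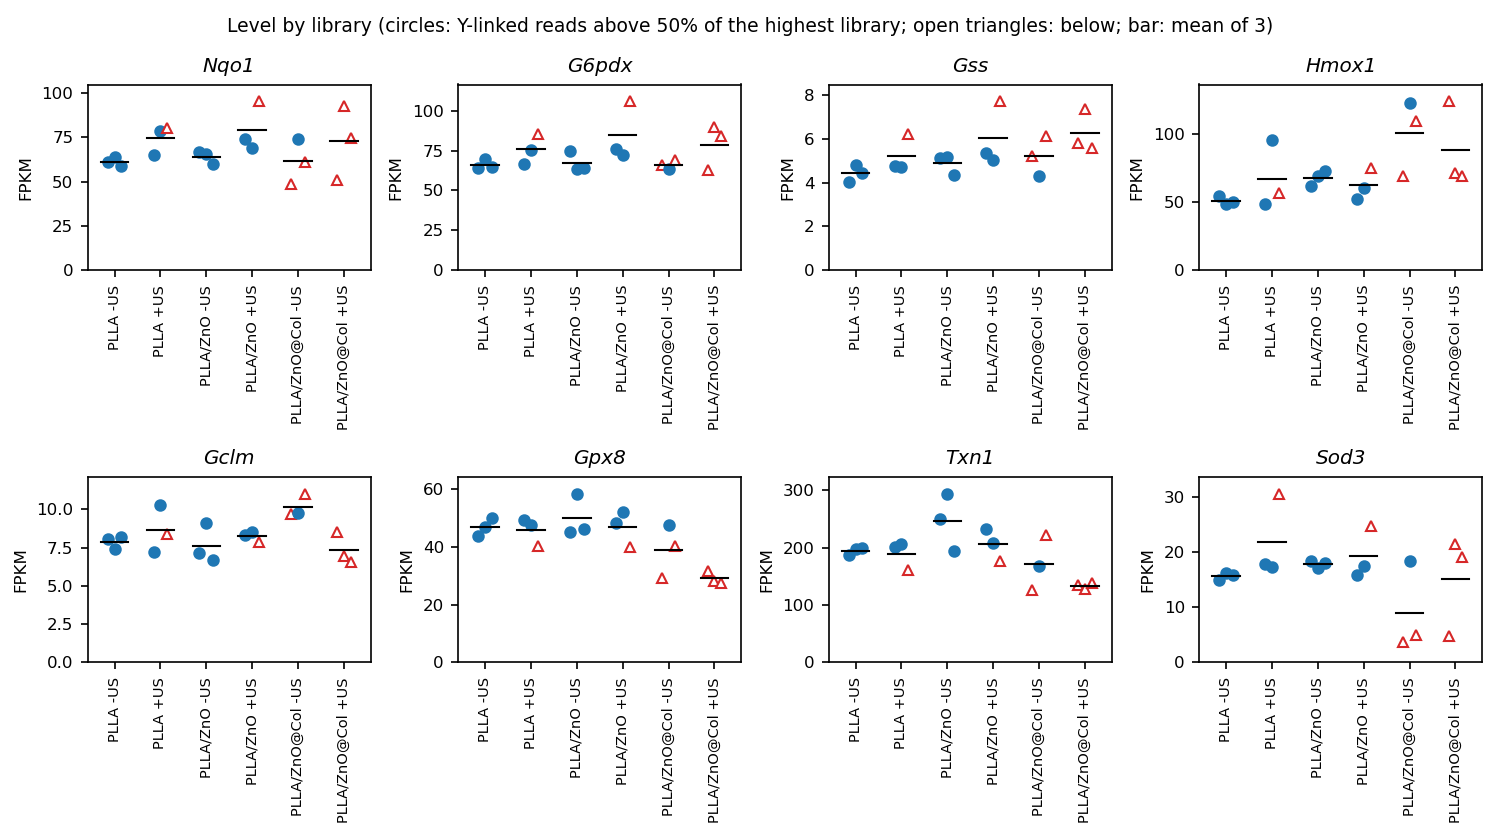
Levels in FPKM of 8 members in each library by group, with a bar at the mean of 3. Circles are libraries with Y-linked reads above 50% of the highest and open triangles those below; triangles hold the lowest Gpx8 values (27.5 to 40.4 FPKM) and, in the 3 libraries with little Thy1, the lowest Sod3 values (3.74 to 5.01 FPKM).

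Of the glutathione transferases, which attach glutathione to electrophiles, Gstp1 was the most abundant at 122 to 268 FPKM. The Gstp1 copy Gstp2 was listed at 17.7 to 52.0 FPKM, so reads may be divided between them. Gstm1 ranged from 44.1 to 122 FPKM, Gstm2 from 37.4 to 99.5 and the membrane-bound Mgst1 from 2.91 to 9.75 FPKM. The last was at 2.91 to 4.27 FPKM in the libraries with little Thy1 and at 5.22 to 9.75 FPKM in the other 15. Gsta4, which clears the lipid peroxidation product hydroxynonenal, was at 5.81, 8.53 and 8.78 FPKM on PLLA -US and 10.6, 9.9989 and 10.5 on PLLA/ZnO -US, with no overlap. Its other groups were at 10.6, 8.46 and 9.72 FPKM on PLLA +US, 12.2, 10.5 and 14.2 on PLLA/ZnO +US, 6.57, 8.59 and 14.6 on PLLA/ZnO@Col -US and 9.33, 11.5 and 10.4 on PLLA/ZnO@Col +US. The log2 fold change for zinc oxide without ultrasound was 0.44 (SE 0.24; adjusted p 1 by edgeR), and 0.28 without PLLA -US replicate 1. Abcc1, which exports glutathione conjugates, was at 15.8, 15.8 and 13.4 FPKM on PLLA -US and 13.3, 14.8 and 17.1 on PLLA +US, at 14.1, 10.99 and 13.5 on PLLA/ZnO -US and 12.1, 12.5 and 14.6 on PLLA/ZnO +US, and at 17.4, 20.4 and 11.98 and 16.1, 18.4 and 19.7 on PLLA/ZnO@Col. With ultrasound all 3 collagen libraries were above all 3 PLLA/ZnO libraries, at a log2 fold change of 0.50 (SE 0.17; unadjusted p 0.00952, adjusted p 0.422 by edgeR).

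Ferritin heavy and light chains, which together form the iron storage shell, were the most abundant members. Fth1 (chromosome 19, 9980598 to 9985092) was at 1209.96, 1445 and 1385 FPKM on PLLA -US and 1463, 1708 and 1726 on PLLA +US, and all 3 treated libraries were above all 3 controls. On PLLA/ZnO it was at 1766, 2073 and 1433 FPKM without and 1461, 1470.2 and 2345 with ultrasound, and on PLLA/ZnO@Col at 989, 1085 and 1660.2 and 1189, 1425 and 1476, where the groups overlapped. Ftl1 (chromosome 7, 45457944 to 45459884, minus strand) was at 857, 968 and 969.6 FPKM on PLLA -US and 1080.05, 1173 and 1460.5 on PLLA +US. Its FPKM was 1224, 1283 and 1095 on PLLA/ZnO -US and 1278, 1227 and 1949 on PLLA/ZnO +US, and 1341, 883 and 2422 and 1804, 1437 and 1223 on PLLA/ZnO@Col without and with ultrasound. PLLA -US held 3 of the 4 lowest Ftl1 values, and both PLLA +US and PLLA/ZnO -US lay above it with no overlap. Log2 fold changes were 0.37 (SE 0.29) for ultrasound on PLLA and 0.38 (SE 0.29) for zinc oxide without ultrasound, 2 contrasts that share the PLLA -US libraries (adjusted p 0.978 and 1 by edgeR).

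Ultrasound on PLLA, taken over all members, gave 32 of 40 higher and 8 lower with a median log2 fold change of 0.20, against 50.5% of all genes higher and a median of 0.00. In 9 of 40 members all treated libraries were above all controls (Nqo1, Fth1, Gpx7, Prdx1, Pgd, Ftl1, Gstm1, Gstp1 and Sod3), against 4.99% of all genes, and in 0 members below, against 5.80%. At an unadjusted p under 0.05 there was 1 member higher, Gpx3 (0.201% of all genes were), and 0 lower (0.235%). That 1 rests on PLLA +US replicate 3 alone, without which Gpx3 was at -0.082, so nothing is read from it. Without the 7 libraries with few Y-linked reads, which removes PLLA +US replicate 3, 34 members were higher with a median of 0.10, and without the 6 libraries low in macrophage markers 33 were, with the same median. In that replicate 36 of 40 members were above their mean over the series. The median deviation from these means there was 0.20 for the members and 0.11 for all tested genes (log2 scale).

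Ultrasound on PLLA/ZnO also gave 32 members higher and 8 lower, with a median of 0.11 against -0.03 for all genes, of which 46.3% were higher. Here the count rested on 1 library. Without the 7 libraries, which removes PLLA/ZnO +US replicate 3, 19 members were higher and 21 lower with a median of -0.01, and without that replicate alone the median was also -0.01. Without the 6 libraries low in macrophage markers, which include it, 16 were higher and 24 lower with a median of -0.048. In that replicate 12 of 40 members were more than 0.5 above their mean over the series on the log2(FPKM + 1) scale, against 4.19% of all genes. Nqo1, Tkt and Cat were above all controls in all 3 treated libraries (3 of 40, against 6.82% of all genes) and Mgst1 below (1 of 40, against 4.62%). G6pdx was the 1 member higher at an unadjusted p under 0.05 (2.1% of all genes were), and 0 were lower (1.14%).

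Ultrasound on PLLA/ZnO@Col gave 23 members higher and 17 lower, with a median of 0.03 against -0.03 for all genes, of which 47.1% were higher. No member was above its controls in all 3 libraries (0 of 40, against 5.28% of genes), and Gclm was the 1 member below (against 5.74%). The unadjusted p was under 0.05 for 2 members that were lower, Gclm and Gpx8 (3.02% of all genes), and for 0 that were higher (5.15%). The median was 0.29 without PLLA/ZnO@Col -US replicate 3 and -0.094 without PLLA/ZnO@Col -US replicate 2, the controls that held the highest value of 13 members and the lowest of 14 in the whole series. How many of all genes had an extreme in these libraries was not computed. Without the 6 libraries low in macrophage markers, which leaves PLLA/ZnO@Col +US with 1 library, 10 members were higher and 30 lower with a median of -0.12. The difference of the ultrasound response between membranes was called for 0 of 40 members and 0 of all genes by edgeR, both for PLLA/ZnO against PLLA and for PLLA/ZnO@Col against PLLA/ZnO. In the former 14 of 40 members had a positive difference (46.8% of all genes), with 0 members and 46 genes at an unadjusted p under 0.05 (0.168% positive, 0.218% negative). In the latter 13 of 40 were positive (42.8% of all genes), and at that p Gclm was the 1 negative member (0.494% of genes) and 0 were positive (1.71%). Apart from Gpx3, the smallest p in the former belonged to Hmox1 at -0.49 (SE 0.39) and Sod2 at -0.45 (SE 0.37), and in the latter, after Gclm, to Gpx8 at -0.32 (SE 0.24) and Prdx1 at -0.24 (SE 0.21).

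Averaged over the 3 membranes, ultrasound gave 33 of 40 members higher and 7 lower with a median of 0.12, against 51.3% of all genes higher and a median of 0.01. G6pdx, Nqo1, Gss and Gpx7 had an unadjusted p under 0.05 (4 members higher, against 6.33% of all genes, and 0 lower, against 5.77%), and by edgeR the adjusted p was 0.363 for each. Without the 3 libraries with little Thy1 edgeR called 1044 genes (8.75%), among them 6 of 40 members, all higher with ultrasound: Gpx7 at 0.59, Gstm1 at 0.56, Gpx1 at 0.55, Ftl1 at 0.45, Gstm2 at 0.41 and Tkt at 0.35 on the log2 scale. In that fit the 4 remaining libraries with few Y-linked reads are all +US, and 1 library stands for PLLA/ZnO@Col -US. The other 4 +US libraries, those of PLLA and PLLA/ZnO, had Y-linked reads at 71.9% to 81.1% of the highest library, so treatment and library set overlap in part. Without the 6 libraries low in macrophage markers the average turned: 17 members were higher and 23 lower with a median of -0.025, 0 genes were called by edgeR, and G6pdx was at 0.035 and Nqo1 at 0.077.

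**Figure D4:**
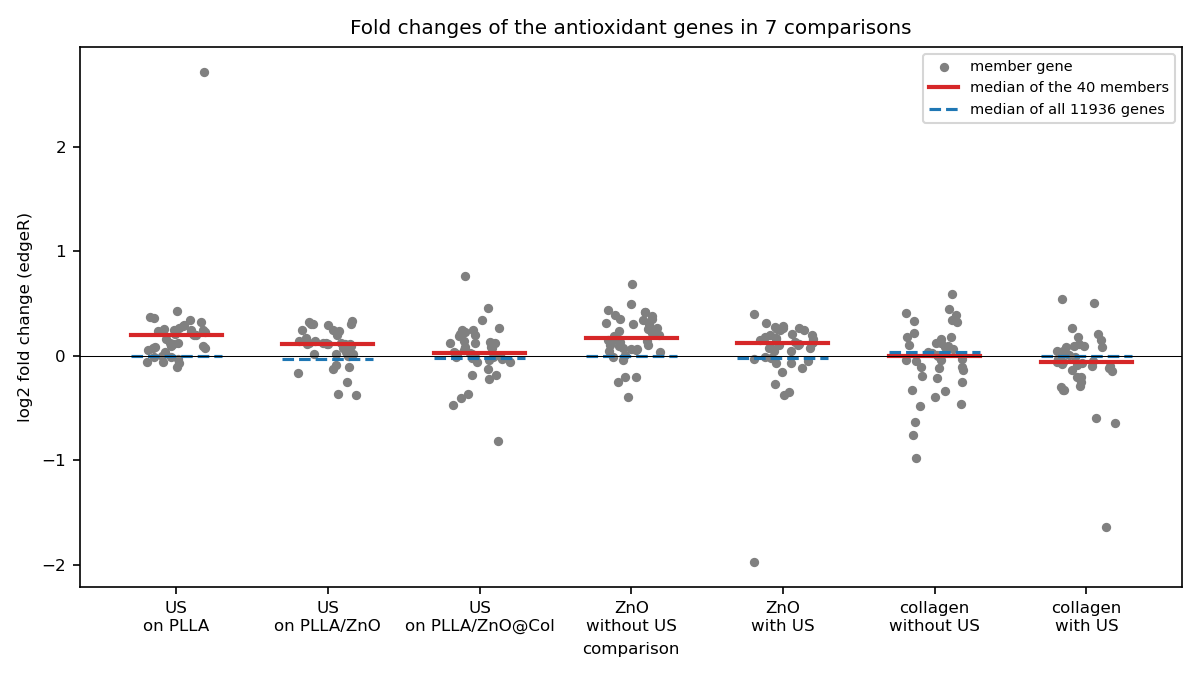
Each grey point is the log2 fold change of 1 member in a comparison, the red line the median of the 40 members and the dashed line the median of all 11936 genes. The member median lies above that of all genes for ultrasound on PLLA (0.20 against 0.00). It also does for zinc oxide without ultrasound (0.17 against -0.01), a comparison with the same PLLA -US controls. The far points at 2.72 and -1.98 are Gpx3.

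Zinc oxide without ultrasound gave the most one-sided count of the membrane comparisons. None of its 6 libraries is low in Y-linked reads or Thy1, but PLLA/ZnO -US replicate 3 is low in macrophage markers (Itgam 0.0109 and Csf1r 0.103 FPKM, against 1.17 to 1.49 and 1.17 to 1.40 FPKM in the other 5). Of 40 members 34 were higher on PLLA/ZnO and 6 lower, with a median of 0.17 against -0.01 for all genes. Of all genes 48.9% were higher. The PLLA -US controls also serve for ultrasound on PLLA, so the counts of the 2 comparisons are not independent. In these controls the member medians were -0.23, -0.053 and -0.16 relative to the members' means over the series (log2 scale). Non-overlapping libraries placed 10 members higher (Prdx2, Hmox1, Gpx3, Prdx5, Prdx4, Gsta4, Gstm2, Ftl1, Gstp1 and Sod3), against 7.61% of genes, and 2 lower (Txnrd1 and Gclc), against 9.95%. No member reached an unadjusted p under 0.05 by edgeR, where 0.896% of all genes were higher and 0.293% lower, and the adjusted p was 1 for every member. DESeq2 called 1 gene, which was no member. The median stayed between 0.13 and 0.21 over all settings, and without the 6 libraries low in macrophage markers 34 members were again higher, with a median of 0.19. With ultrasound, zinc oxide gave 28 members higher and 12 lower, with a median of 0.12 against -0.02 for all genes, of which 46.2% were higher. There 0 members were non-overlapping in either direction (2.03% of genes higher, 5.91% lower), 0 members reached an unadjusted p under 0.05 (0.679% of genes higher, 0.586% lower), and the median was 0.06 without the 7 libraries and 0.051 without the 6 low in macrophage markers. Without PLLA/ZnO +US replicate 3 alone the median was -0.037, so its sign rested on that library. The members with the smallest p were Prdx1 at 0.27 (SE 0.15), Tkt at 0.28 (SE 0.16) and Gpx3. Without PLLA/ZnO +US replicate 3, Prdx1 was at 0.13 and Tkt at 0.12. The Gpx3 value rests on PLLA +US replicate 3.

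Collagen without ultrasound split the members evenly, 21 higher and 19 lower, with a median of 0.00 against 0.04 for all genes, of which 55.0% were higher. Gclm was non-overlapping and higher (1 of 40, against 5.09% of genes) and Gpx3 and Cat lower (2 of 40, against 6.31%). At an unadjusted p under 0.05, Hmox1, Gclm and Abcc1 were higher (3 of 40, against 7.77% of genes) and Txn1 and Sod2 lower (2 of 40, against 5.17%). The smallest adjusted p of a member was 0.240 by edgeR. This comparison depended on which collagen libraries were kept. Without all 7 libraries with few Y-linked reads, PLLA/ZnO@Col -US is replicate 2 alone, assumed to vary like the other groups. EdgeR then called 1932 genes (16.2%) and 15 of 40 members. Of these Txnrd1 (0.71), Gclc (0.76) and Abcc1 (0.65) were higher and 12 were lower, from Gpx3 at -4.80, Gpx1 at -0.97, Gstm1 at -0.92 and Gstm2 at -0.91 to Ftl1 at -0.46, and such calls compare 1 library with the group. Without the 6 libraries low in macrophage markers, which removes that same replicate, edgeR called 1889 genes (15.8%) and 4 members, all lower: Sod3 at -1.96, Sod2 at -1.11, Mgst1 at -1.03 and Gsr at -0.48. That fit keeps only libraries with little Thy1 for PLLA/ZnO@Col -US.

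Collagen with ultrasound gave 14 members higher and 26 lower, with a median of -0.06 against 0.00 for all genes, of which 50.4% were higher. Abcc1 was the 1 non-overlapping member that was higher, against 10.2% of genes, and 6 were lower (Gpx3, Gpx8, Prdx3, Cat, Txn1 and Prdx1), against 5.08%. At an unadjusted p under 0.05, Abcc1 was higher (1 of 40, against 6.92% of genes) and Gpx8, Txn1 and Cat lower (3 of 40, against 2.51%). All 3 PLLA/ZnO@Col +US libraries and 1 of the 3 PLLA/ZnO +US libraries, replicate 3, are among those with few Y-linked reads. The member median was 0.075 without PLLA/ZnO +US replicate 3 and -0.14 without PLLA/ZnO +US replicate 2, so its sign rested on 1 library. Without the 6 libraries low in macrophage markers PLLA/ZnO@Col +US is replicate 1 alone, with little Thy1, and edgeR called 498 genes (4.17%), among the members only Sod3 at -1.74.

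**Figure D5:**
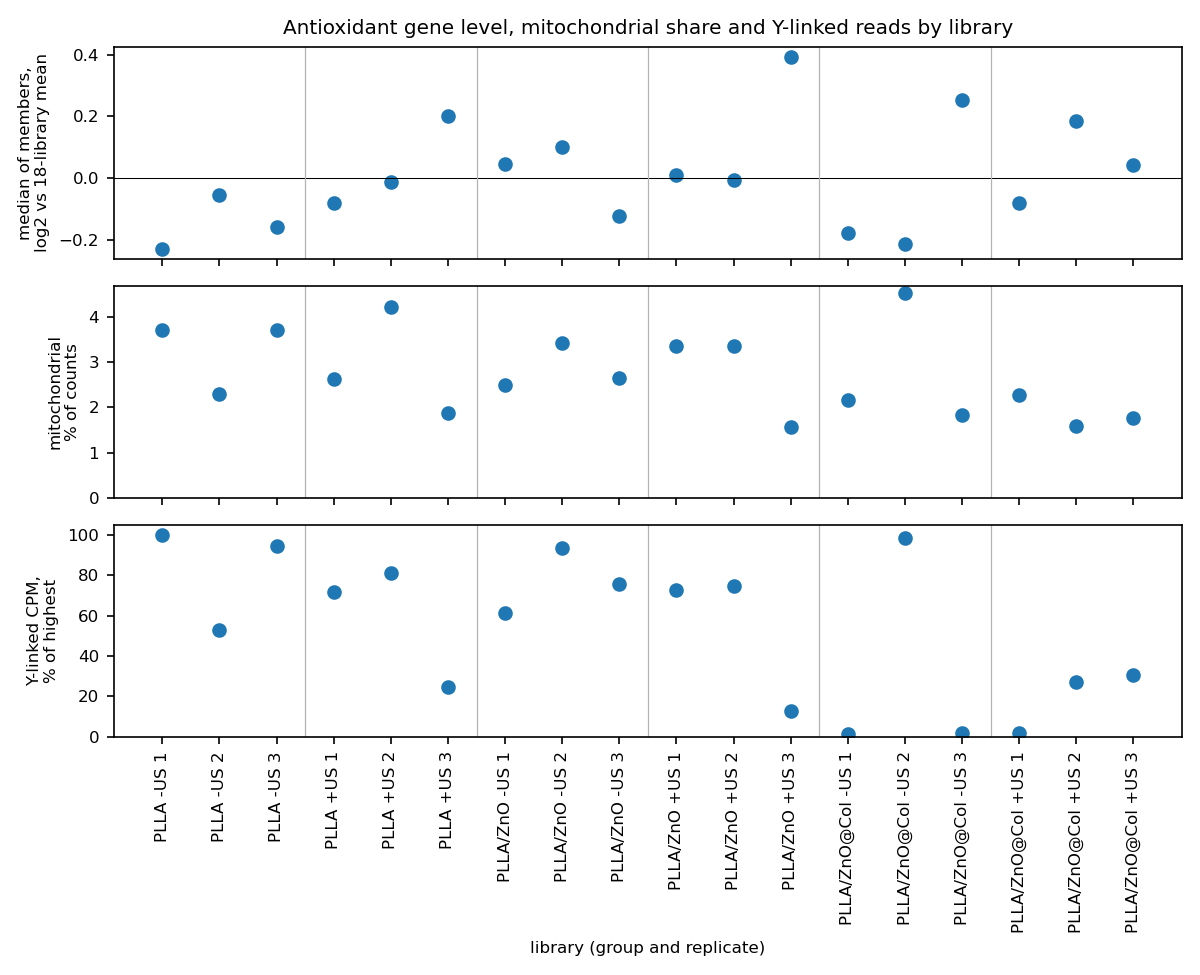
For each library the upper panel gives the median of the 40 members relative to their means (log2 scale), the middle panel the mitochondrial percent of counts and the lower panel Y-linked reads as a percent of the highest library. The highest member medians, 0.39 in PLLA/ZnO +US replicate 3 and 0.25 in PLLA/ZnO@Col -US replicate 3, are in libraries with few Y-linked reads and a mitochondrial share under 2%.

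Seen by library, the members' median deviation from their own means ran from -0.23 in PLLA -US replicate 1 to 0.39 in PLLA/ZnO +US replicate 3. It lay between -0.18 and 0.39 in the 7 libraries with few Y-linked reads and between -0.23 and 0.10 in the other 11. PLLA/ZnO@Col -US held both the library with the most members at their highest value (13 in replicate 3) and that with the most at their lowest (14 in replicate 2). The same count over all genes was not computed. Of all genes, 12% were more than 0.5 above their mean in replicate 3 and 14.2% more than 0.5 below it. The shares in replicate 2 were 14.3% above and 8.58% below. In replicate 3, Prdx2 was at 106 FPKM, Gpx4 at 203 and Ftl1 at 2422, and in replicate 2 at 41.0, 78.5 and 883 FPKM.

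Beyond the 41 members, 70 further genes of the NRF2 and antioxidant network were listed, and 53 of them reached the level for testing. By edgeR 0 of 53 were called in any comparison (percent called 0 among all genes). Ultrasound gave 37 of 53 higher on PLLA, 26 on PLLA/ZnO and 26 on PLLA/ZnO@Col, against 50.5%, 46.3% and 47.1% of all genes. Zinc oxide gave 41 of 53 higher without ultrasound and 33 with it, against 48.9% and 46.2% of all genes. Collagen gave 28 without and 23 with ultrasound, against 55% and 50.4%. Ultrasound on PLLA and zinc oxide without ultrasound share the PLLA -US controls, so their counts are not independent. At an unadjusted p under 0.05, collagen without ultrasound had 5 of the 53 higher (against 7.77% of all genes) and 8 lower (5.17%), and with ultrasound 4 higher (6.92%) and 3 lower (2.51%). Those under 0.01 without ultrasound were 3 higher (2.69% of all genes) and 2 lower (1.82%). The former were Mafk, a small Maf partner of NRF2 (0.46, SE 0.15), Sqstm1, the autophagy receptor that binds Keap1 (0.64, SE 0.20), and Sephs2, which makes selenophosphate for selenoproteins (0.53, SE 0.17). The latter were Cbr1, carbonyl reductase (-1.56, SE 0.43), and Gstt1, a theta-class transferase (-1.23, SE 0.34). With ultrasound Maff, another small Maf protein, was the 1 higher under 0.01 (1.83% of all genes), at 0.48, SE 0.16, and 0 of the 53 were lower (0.494%). The values are log2 fold changes, and their adjusted p ran from 0.138 for Cbr1 to 0.415 for Maff by edgeR.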

How the data were processed

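Polyadenylated RNA of 18 MC3T3-E1 libraries was analysed from the single table the authors deposited. Per the file headers it holds, for each gene and library, whole-number read counts that were not normalized and FPKM values scaled to transcript length and library size. The submitters' processing notes name cutadapt 1.9, FastQC and the build GRCm38. Which aligner and counter were used, and how strand and shared reads were handled, is not given in the sources used here. Libraries were placed in groups by their titles, and 0 columns of values belonged to no sample.

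Genes at 1 FPKM or more in at least 3 libraries were tested on the deposited counts with edgeR 4.0.16 in R 4.3.3 (TMM scaling, quasi-likelihood F-test, two-sided, 1 mean per group, 12 residual degrees of freedom) and Benjamini-Hochberg adjustment over all 11936 genes of a comparison, called at 0.05. The common biological coefficient of variation was 0.28. The test was first tried on simulated counts. Levels are the authors' FPKM as deposited. The members, the further 70 genes and the marker lists were chosen with earlier results of these data known. Values in every library are given for 17 members picked by role and for the 3 members with the smallest unadjusted p in each comparison; Sod3 was added after its values were seen. Alternatives were DESeq2 1.42.0, limma 3.58.1 on log2(FPKM + 1) and log2(FPKM + 0.1), other filters, a replicate block, fits of only the groups compared, and libraries left out, among them sets of 7 and 6 chosen after seeing the data.

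Same-numbered libraries of 2 compared groups deviated together in all 3 pairs only for zinc oxide with ultrasound (correlations 0.58, 0.64 and 0.79). Over all 21 pairs the correlations were -0.64 to 0.79. Replicate 3 of both those groups has few Y-linked reads. The labels do not say that replicate numbers pair libraries, and the values given above for that comparison come from the unpaired fit. A further fit of its 6 libraries, chosen after seeing the data, took the numbers as pairs. That fit called 0 genes and gave a member median of 0.11. No replicate pair agreed within sampling noise (lowest chi-square per degree of freedom 15.9). Promoter windows come from RefSeq, GRCm38.p6.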

Additional observations from a re-analysis of the deposited data

How the results depend on the processing

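With all 18 libraries and edgeR, 0 genes were called in each of the 11 tests. DESeq2 called 5 genes for ultrasound on PLLA/ZnO, 3 for ultrasound on PLLA/ZnO@Col, 1 for zinc oxide without and 2 with ultrasound, 407 for collagen without and 47 with ultrasound, 1 for averaged ultrasound and 506 for any difference between groups. Among these Gpx8, in the test of any difference, was the only member. limma on log2(FPKM + 0.1) called 1 gene for collagen without ultrasound. DESeq2's size factors in edgeR, no FPKM filter, a filter at 5 FPKM and limma on log2(FPKM + 1) moved no count of calls past the margin of 1.5 times. With the replicate number as a replicate block, 0 genes were called in all 11 tests, the member median for ultrasound on PLLA was 0.19, and the block changed no call.

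With each library left out in turn, the count of called genes ran from 0 to 1 for ultrasound on PLLA/ZnO, for zinc oxide with ultrasound, for averaged ultrasound and for both differences of response between membranes, the 1 call arising without PLLA/ZnO +US replicate 2. It ran from 0 to 38 for ultrasound on PLLA/ZnO@Col (38 without PLLA/ZnO@Col +US replicate 1), from 0 to 1039 for collagen without ultrasound (1039 without PLLA/ZnO@Col -US replicate 2, 18 without replicate 3) and from 0 to 211 for any difference (211 without PLLA/ZnO@Col -US replicate 2, 7 without PLLA/ZnO@Col +US replicate 1). The member median ran from -0.094 to 0.29 for ultrasound on PLLA/ZnO@Col, from -0.17 to 0.11 for collagen without ultrasound and from -0.21 to 0.10 for the response on PLLA/ZnO@Col minus that on PLLA/ZnO, the ends being the fits without PLLA/ZnO@Col -US replicates 2 and 3. Gpx3 ran from -0.082 to 3.24 for ultrasound on PLLA, from -2.49 to 0.83 for zinc oxide with ultrasound and from -3.18 to 0.14 for the response on PLLA/ZnO minus that on PLLA, and the sign changed without PLLA +US replicate 3 alone.

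Without the 3 libraries with little Thy1, 111 genes were called for ultrasound on PLLA/ZnO@Col (member median 0.41), 166 for collagen without ultrasound (-0.28; Txnrd1 the only member), 1044 for averaged ultrasound, 13 for the response on PLLA/ZnO@Col minus that on PLLA/ZnO (0.21) and 25 for any difference. PLLA/ZnO@Col -US is then replicate 2 alone, the library with the highest Txnrd1 level of the series (62.4 FPKM). The Txnrd1 value for collagen without ultrasound, 0.70 on the log2 scale, thus compares 1 library with a group. Leaving out the 7 libraries with few Y-linked reads was chosen after seeing the data. It gave 1932 calls and a median of -0.27 for collagen without ultrasound, and moved Gpx3 to -0.091 for ultrasound on PLLA, 0.78 for zinc oxide with ultrasound and 0.10 for the response on PLLA/ZnO minus that on PLLA. Leaving out the 6 libraries low in macrophage markers, also chosen after seeing the data, gave 1889 calls for collagen without and 498 with ultrasound and 1456 for any difference, and moved Gpx3 to -0.092 for ultrasound on PLLA, 0.77 for zinc oxide with ultrasound and 0.19 for the response on PLLA/ZnO minus that on PLLA. Gpx1 for ultrasound on PLLA/ZnO@Col was then at -0.29. The calls for any difference held the members Sod2, Sod3, Prdx4 and Ftl1, a smaller share of the members than of all genes. There PLLA/ZnO@Col +US is replicate 1 alone, and both collagen groups keep only libraries with little Thy1. These fits have fewer libraries, and the cause of the added calls was not tested. That each group has 3 libraries limits what could be called; depth limits Gpx3 in its 3 lowest libraries, at 8 to 15 counts.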
